A study of Sus scrofa with 12 samples.

Results

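Oxidative phosphorylation (OXPHOS) is carried out in the inner mitochondrial membrane by complexes I to IV of the respiratory chain, by cytochrome c and by the ATP synthase, complex V. The genes described here are the nuclear-encoded ones: every entry of the deposited mRNA table whose symbol begins with NDUF, COX and a digit, UQCR or ATP5, together with SDHA to SDHD and CYCS, with the most-read entry taken for each symbol. The pattern matched 97 entries under 79 symbols. Of these symbols, 3 name mitochondrially encoded subunits (COX1, COX2 and COX3) and 4 are older names of a gene also listed under its newer name, which left 72 nuclear genes among 13363 distinct symbols. They comprise 31 genes of complex I, 4 of complex II, 7 of complex III, cytochrome c itself, 19 of complex IV and 10 of complex V. By role, 58 encode subunits or cytochrome c and 14 encode assembly factors or related proteins.

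Electrons from NADH enter at complex I and those from succinate at complex II, and pass through complex III and cytochrome c to complex IV, which reduces oxygen. The protons pumped on the way drive complex V. Most subunits are encoded in the nucleus, translated in the cytosol and imported, while a few core subunits are encoded by mitochondrial DNA, so the complexes depend on both genomes and on assembly factors that bring in hemes, copper and iron-sulfur clusters. Mesenchymal stromal/stem cells (MSCs) are multipotent cells of connective tissue, and extracellular vesicles (EVs) are membrane-bound particles that cells release with RNA and protein cargo.

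The mRNA libraries came from 3 female domestic pigs aged 3 months. From abdominal fat of each animal, MSCs were freed with collagenase, grown in medium with platelet lysate and used at passage 3, and EVs were collected from the supernatants of the MSCs by ultracentrifugation. There were thus 3 MSC and 3 EV libraries, and the pig labels pair each EV library with the MSC library of the same animal. The question addressed is whether the OXPHOS transcripts held the same share of the RNA in EVs as in the cells that released them.

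Between 10429085 and 12276855 reads were assigned to genes per library. Levels are given as CPM, reads per 1000000 reads on genes, after scaling of the libraries by trimmed mean of M values (TMM), a method that takes most genes as not differing between libraries. A level is therefore relative to a library's other mRNA reads, and is not a plain share of them, since the TMM factors ran from 0.852 to 1.14. Less of a transcript cannot be told apart from more of other RNA, nor fewer cells of a kind from less RNA per cell. The MSC markers CD44 and NT5E were detected, ENG was low and THY1 was listed at 0, and their summed level was 439 to 1085 CPM in MSCs and 499.8 to 613 in EVs. Of the vesicle marker mRNAs, CD9 had 36 reads and ITGB1 had 10 reads in all libraries, while CD63 and CD81 were tested. The endothelial and adipocyte lists were the marker lists whose groups did not overlap. Of the endothelial list 4 of its 5 genes had an entry, with a summed level of 10.0 to 16.9 CPM in MSCs and 1.64 to 6.67 in EVs, nearly all of it PECAM1, with VWF at 0 and KDR at 1 read. Leukocyte markers summed to 48.7 to 51.1 in MSCs and 45.2 to 63.7 in EVs, most of it CD14. Over all libraries CD68 had 204 reads, CSF1R 40, PTPRC 33 and CD3E 0. Mural markers summed to 47.5 to 120.5 in MSCs and 22.3 to 98.1 in EVs, most of it CSPG4. MCAM held most of the rest, MYH11 had 18 reads in all libraries, and DES and RGS5 had 0. Platelet markers summed to at most 3.16, all of it GP9. The adipocyte list was higher in EVs, at a level near that of a few reads, from 0 to 0.232 in MSCs and 0.422 to 0.708 in EVs. The part of these cells in the results below was not tested.

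Of the 72 genes, 44 had enough reads to be tested and 28 did not. Each of the 28 had another entry of the table over its span. By contrast, the 23 genes with no other entry there had reads, with a median of 2867 over the 6 libraries and a range from 234 to 17662. Of the 49 genes with another entry over the span, 19 had 0 reads. In 33 of these a same-strand entry covered at least 90% of the span, often the same gene listed once by symbol and once by Ensembl identifier, and 18 of them (54.5%) had 0 reads and 22 had 10 or fewer. Over the whole series, 28.8% of entries with no other entry over the span and 62.9% of those covered to that extent had 0 reads. Of the tested genes, NDUFA10, NDUFAB1, NDUFS1, SDHB, SDHD, UQCRFS1, COX4I1, COX17, ATP5F1A and ATP5MC3 were covered in the same way. Values of such genes are therefore uncertain, and how the counting treated reads shared by several entries was not tested.

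**Figure D1:**
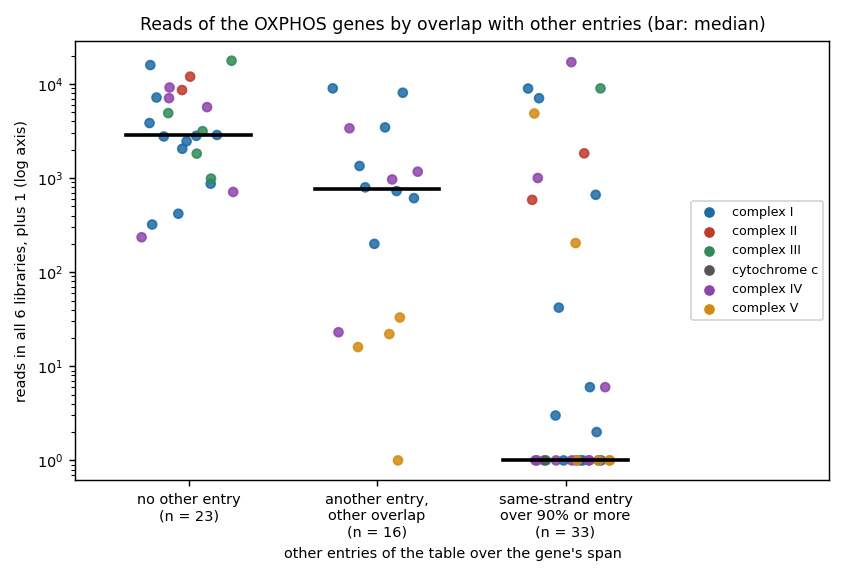
Reads of the 72 OXPHOS genes summed over the 6 libraries, plus 1, on a log axis, by whether another entry of the table lay over the gene's span; each point is a gene, coloured by complex, and bars are medians. The 23 genes with no other entry lie at 234 reads or more, while 18 of the 33 genes under a same-strand entry lie at 0 reads.

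The genes without usable reads included central members of the chain. Cytochrome c (CYCS), the mobile electron carrier between complexes III and IV, had 0 reads under each of its entries. In complex IV, COX6A1, COX6B, COX6C, COX7A1, COX7A2, COX7C and COX8H had 0 reads, COX5B had 22, and NDUFA4, a complex IV subunit named after complex I, had 5. In complex V, ATP5MC1, a gene for the c subunit that forms the rotor ring, ATP5E, ATP5L, ATP5PO and the inhibitory factor ATP5IF1 had 0 reads, and ATP5H, ATP5J2 and ATP5ME had 15 to 32. In complex I, NDUFA8, NDUFA13, NDUFC1, NDUFS3 and the assembly factor NDUFAF3 had 0 reads, NDUFA11, NDUFB8 and NDUFS5 had 1 to 5, and NDUFB6 had 41. UQCR10 of complex III had 0 reads. Counting error alone would allow a level of up to 0.232 to 0.303 CPM per library for 0 reads (3 reads). Isoform pairs such as COX7A1 with COX7A2 and NDUFA4 with NDUFA4L2 could therefore not be compared. The 37 entries on the mitochondrial chromosome also had 0 reads, so nuclear and mitochondrially encoded subunits could not be set against each other.

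Among the tested genes the OXPHOS transcripts were lower in EVs than in MSCs. Of the 44 genes, 39 (88.6%) had a negative log2 fold change, EV minus MSC, against 50.9% of all 12392 entries tested. Their median log2 fold change was -0.55, against -0.02 over all entries, with a range from -1.35 to 2.40. In 31 genes the EV library was below the MSC library in all 3 pigs (24.3% of all entries), and in 27 every EV library lay below every MSC library (13.6% of all entries). In the other direction, 1 gene was higher in all 3 pigs and 1, the same gene, had every EV library above every MSC library (22.7% and 14.3% of all entries).

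The differences were small, and none passed the adjusted threshold by edgeR. With edgeR (quasi-likelihood test, p-values adjusted by Benjamini-Hochberg over all entries), 0 OXPHOS genes and 0 of all entries (0% in either direction) had a fold over 2 with an adjusted p under 0.05. At an unadjusted p under 0.05, 16 OXPHOS genes were lower (36.4%, against 7.93% of all entries) and 0 were higher (against 8.03%). With a fold over 2 added, as the study's thresholds have it, 1 gene was lower (NDUFB1, against 3.57% of all entries) and 0 were higher (against 5.55%). DESeq2 gave 17 lower genes at an unadjusted p under 0.05 (against 9.23% of all entries), and limma on log2(RPKM + 1) gave 15 (against 7.36%). Limma gave 0 OXPHOS genes past the adjusted threshold, and DESeq2 gave NDUFB1 (adjusted p = 0.00664). With DESeq2 at an adjusted p under 0.05, any fold and either direction, 2.27% of the OXPHOS genes and 3.83% of all entries passed. The share of all entries with a fold over 2 added is not given here. The p-values of these fits measure the spread between the 3 libraries within each group. They have no term for the pig and so ignore that both groups came from the same 3 animals. An exact permutation test of 3 against 3 libraries, two-sided, cannot go below 0.1, and it ignores the pairing by pig as well.

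The count of 16 rested on particular libraries. It was 3 of 44 without EV replicate 3 (6.82%, against 6.63% of all entries) and 2 without EV replicate 2 (4.55% against 2.93%), so that little or none of the excess over the background was left. It was 9 (20.5%) without MSC replicate 2 or MSC replicate 3, against 7.67% and 5.79%. With the pig as a block it was 10 (22.7% against 8.68%), and NDUFA9, NDUFB5, NDUFS6, COX4I1, COX7A2L and ATP5MC3 no longer passed. In that fit 0 OXPHOS genes passed the adjusted threshold at any fold, against 0.605% of all entries lower and 0.492% higher. The median kept its sign throughout, from -0.61 to -0.45 as each library was left out. The block fit gave a median of -0.55 with all pigs, and -0.66, -0.37 and -0.56 without pig 1, 2 and 3. Its count of lower genes at an unadjusted p under 0.05 was 15 without pig 1 (34.1%, against 8.62% of all entries). Without pig 2 the count was 2 (4.55% against 5.93%) and without pig 3 also 2 (4.55% against 5.79%), so that no excess over the background was left.

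**Figure D2:**
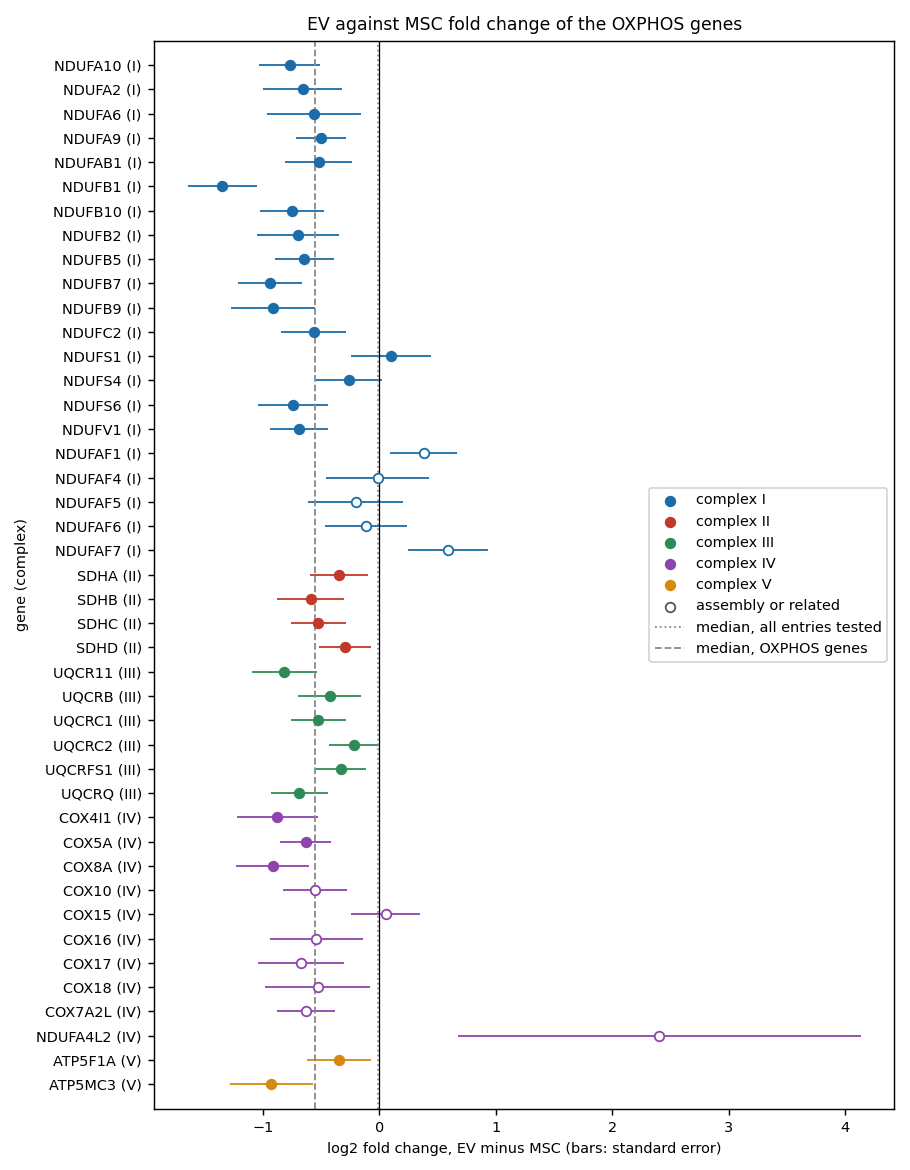
Log2 fold change, EV minus MSC, of 43 of the 44 tested OXPHOS genes with its standard error, grouped by complex; filled points are subunits and open points assembly factors or related proteins, and vertical lines mark 0, the median of all entries (-0.02) and the median of the OXPHOS genes (-0.55). The subunits drawn lie left of 0 except NDUFS1, and NDUFA4L2 stands apart at 2.40 with the widest error.

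Subunits and assembly factors are given separately. Of the 32 subunits tested, 31 were lower in EVs (against 50.9% of all entries), 28 of them in all 3 pigs (against 24.3% of all entries). Their median on the log2 scale was -0.61, and 15 were lower at an unadjusted p under 0.05 (against 7.93% of all entries). Of the 12 assembly factors and related genes tested, 8 were lower, 3 of them in all 3 pigs, with a median of -0.16, and 1 passed. The median of the assembly group was 0.02 without MSC replicate 3 and -0.37 over those with no other entry over the span. The difference between the groups was not tested.

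Complex I, the NADH dehydrogenase, was the best covered. Of 25 subunits 17 were tested, 16 of them lower, with a median log2 fold change of -0.66, and 9 passed an unadjusted p under 0.05. NDUFB1, a small accessory subunit of the membrane arm (316 bases, chromosome 7, 120296367 to 120298214 on the minus strand of susScr3, with no other entry over its span), stood at 51.2, 58.8 and 60.7 CPM in MSC replicates 1 to 3 and at 31.4, 17.5 and 18.1 in the EV replicates. The groups did not overlap, with means of 56.9 ± 5.04 and 22.3 ± 7.86 (SD, n = 3 each). The EV level was 2.55-fold lower, or -1.35 ± 0.30 (SE) on the log2 scale, and had the lowest p of the group (edgeR, adjusted p = 0.212).

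The other tested NDUFB subunits, also accessory subunits of the membrane arm, followed the same order. NDUFB7 was at 46.5, 61.5 and 51.1 CPM in MSCs and at 35.1, 26.8 and 20.9 in EVs (log2 fold change -0.94 ± 0.27, SE). NDUFB9, the most abundant complex I transcript per length over the 6 libraries, was at 121, 235 and 104.6 CPM in MSCs and at 103.6, 68.7 and 72.0 in EVs. Its highest EV library lay just under its lowest MSC library, and its log2 fold change of -0.91 ± 0.36 (SE) was -0.47 without MSC replicate 2. NDUFB5 (-0.64) and NDUFB10 (-0.75) also had every EV library below every MSC library. NDUFB2 had few reads, 199 in all, and a log2 fold change of -0.70, which did not pass the unadjusted threshold.

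The peripheral arm holds the flavin and the iron-sulfur clusters. NDUFV1, the flavin-binding subunit that oxidises NADH, was at 119.7, 140.0 and 121.7 CPM in MSCs and at 102.8, 66.9 and 66.5 in EVs (log2 fold change -0.69 ± 0.25, SE). NDUFS1, its largest iron-sulfur subunit, was the exception among the subunits: it was at 151, 66.6 and 150.04 in MSCs and at 152, 119.6 and 122 in EVs (log2 fold change 0.10 ± 0.34, SE). MSC replicate 2 was low for this gene, and without it the value was -0.20.

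Among the remaining accessory subunits, NDUFS6, NDUFA9 and NDUFA10 passed an unadjusted p under 0.05, at -0.74, -0.50 and -0.77, although NDUFS6 and NDUFA9 did not with the pig as a block, and NDUFS6 was at -0.48 without MSC replicate 2. NDUFA6 and NDUFC2 lie under 9 and 8 other entries and had log2 fold changes of -0.56 each, the former -0.28 without EV replicate 3 and -0.91 without EV replicate 2. In both genes the groups overlapped, and in pig 1 NDUFC2 was higher in EVs (138.8 CPM against 128.25 in MSCs). NDUFAB1, the mitochondrial acyl carrier protein, stood at 9.92 to 13.4 CPM in MSCs and at 7.39 to 8.70 in EVs, without overlap, and at -0.52 ± 0.29 (SE).

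The assembly factors of complex I lay on both sides of 0. Of the 5 tested, 3 were lower and 2 higher, with a median log2 fold change of -0.02. NDUFAF1, needed for assembly of the membrane arm, was the gene with every EV library above every MSC library, at 13.2, 8.04 and 11.1 CPM in MSCs and at 14.0, 14.4 and 13.7 in EVs. Its log2 fold change was 0.38 ± 0.29 (SE; edgeR, adjusted p = 0.503), and 0.21 without MSC replicate 2. NDUFAF7, a mitochondrial methyltransferase, had the value 0.59 ± 0.34 (SE), with pig 3 close to 0, and 0.37 without MSC replicate 2. NDUFAF4, NDUFAF5 and NDUFAF6 lay between -0.21 and -0.02, each lower in pig 3 and higher in pig 2.

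Complex II, succinate dehydrogenase, links the tricarboxylic acid (TCA) cycle to the chain and is encoded in the nucleus throughout. Its 4 subunits were tested, and none passed an unadjusted p under 0.05. Each was lower in EVs in all 3 pigs (against 24.3% of all entries) without overlap between the groups (against 13.6%). SDHA, the flavoprotein, was at 167, 245 and 167 CPM in MSCs and at 163, 158 and 134 in EVs (-0.35 ± 0.25, SE, and -0.14 without MSC replicate 2). SDHB, the iron-sulfur subunit, was at 9.60, 11.96 and 8.91 in MSCs and at 6.84, 6.41 and 6.98 in EVs (-0.59 ± 0.29, SE). In SDHA the margin between the groups was small, whereas the SDHB groups were further apart, with the reservation that a same-strand entry covers 98.4% of its span.

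The membrane anchors of complex II had like values. SDHC was at 150, 171 and 116 CPM in MSCs and at 114, 99.9 and 89.9 in EVs (log2 fold change -0.52 ± 0.24, SE). SDHD was at 28.5, 32.1 and 26.5 in MSCs and at 23.6, 23.9 and 23.4 in EVs (-0.30 ± 0.22, SE). The EV libraries lay close together for SDHB and SDHD, with SDs of 0.2997 and 0.270 CPM.

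Complex III, the cytochrome bc1 complex, had 6 of 7 genes tested. Each of the 6 was lower in EVs in all 3 pigs and without overlap (against 24.3% and 13.6% of all entries). The median of their log2 fold changes was -0.48. UQCR11, a small subunit, was at 28.2, 42.5 and 29.7 CPM in MSCs and at 22.7, 18.1 and 16.1 in EVs (-0.82 ± 0.28, SE; edgeR, adjusted p = 0.260). UQCRQ, a quinone-site subunit, was at 48.2, 63.8 and 55.1 in MSCs and at 40.3, 36.2 and 27.3 in EVs (-0.69 ± 0.25, SE).

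The remaining subunits of complex III did not pass an unadjusted p under 0.05. UQCRC1, a core protein and the OXPHOS gene with the most reads, was at 291, 302 and 308 CPM in MSCs and at 227, 167 and 231 in EVs (-0.53 ± 0.24, SE). Its MSC libraries agreed within an SD of 8.75, and EV replicate 2 was the lowest library. The other core protein, UQCRC2, was at -0.22 (-0.10 without EV replicate 2), the iron-sulfur subunit UQCRFS1 at -0.33 and UQCRB at -0.43 (-0.28 without MSC replicate 2). With the length trend removed UQCRFS1, whose entry has 5592 bases, was at -0.60 and passed the unadjusted threshold.

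In complex IV, cytochrome c oxidase, 3 of 12 subunits were tested. Each was lower at an unadjusted p under 0.05 (against 7.93% of all entries). COX4I1, the widely expressed isoform of the largest nuclear-encoded subunit, was at 229, 486 and 252 CPM in MSCs and at 211, 148 and 168 in EVs. MSC replicate 2 was the highest library by far, and the log2 fold change of -0.88 ± 0.35 (SE) was -0.45 without it. COX8A was at 110.4, 183 and 105.9 in MSCs and at 87.0, 73.3 and 51.3 in EVs (-0.92 ± 0.32, SE), and -0.62 without MSC replicate 2.

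COX5A, a subunit on the matrix side, showed close MSC libraries and no such outlying value. It stood at 98.3, 102.9 and 95.1 CPM in MSCs and at 76.6, 59.3 and 55.2 in EVs, with means of 98.7 ± 3.92 and 63.7 ± 11.3 (SD, n = 3 each). Its value of -0.63 ± 0.22 (log2 scale, SE; edgeR, adjusted p = 0.265) lay between -0.79 and -0.54 as each library was left out.

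The related genes of complex IV ranged more widely. COX7A2L, which takes part in joining complexes III and IV into supercomplexes, was at 167, 168 and 148 CPM in MSCs and at 116.7, 76.2 and 118 in EVs (-0.63 ± 0.25, SE). COX10, COX16, COX17 and COX18, which serve heme, copper and subunit delivery, had values from -0.67 to -0.53, none with an unadjusted p under 0.05 (COX16 and COX17 were at -0.35 and -0.34 without MSC replicate 2), and COX15, the heme A synthase, was at 0.05 ± 0.29 (SE). COX18 rested on MSC replicate 3, which held 20.4 CPM against 8.83 and 6.70 in the other MSC libraries, and was at 0.09 without it.

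NDUFA4L2, a hypoxia-inducible relative of NDUFA4, gave the highest value of the group and the least certain. It was at 1.55, 34.2 and 17.4 CPM in MSCs and at 1.18, 7.65 and 272 in EVs, with 2685 of its 3379 reads in EV replicate 3. The log2 fold change was 2.40 ± 1.73 (SE) and turned to -1.997 without that library, and the pigs gave -0.38, -2.15 and 3.96. The entry spans chromosome 5 from 24162765 to 24376798 with 15 other entries over it. Without NDUFA4L2 the median of the OXPHOS genes was -0.56.

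In complex V, 2 of 10 genes were tested, so little can be said of it as a whole. ATP5F1A, the alpha subunit of the catalytic head, was at 89.3, 55.2 and 88.6 CPM in MSCs and at 61.5, 49.6 and 72.4 in EVs (-0.35 ± 0.28, SE). It was lower in EVs within each pig although the groups overlapped, and the value moved to -0.20 when EV replicate 2 was left out and to -0.54 without MSC replicate 2. The same gene under its older symbol ATP5A1, over nearly the same span, gave -0.34. ATP5MC3, a gene for the c subunit, had 203 reads in all, at 4.18, 4.02 and 3.22 CPM in MSCs and 2.20, 1.87 and 1.92 in EVs (-0.93 ± 0.36, SE; edgeR, adjusted p = 0.285).

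**Figure D3:**
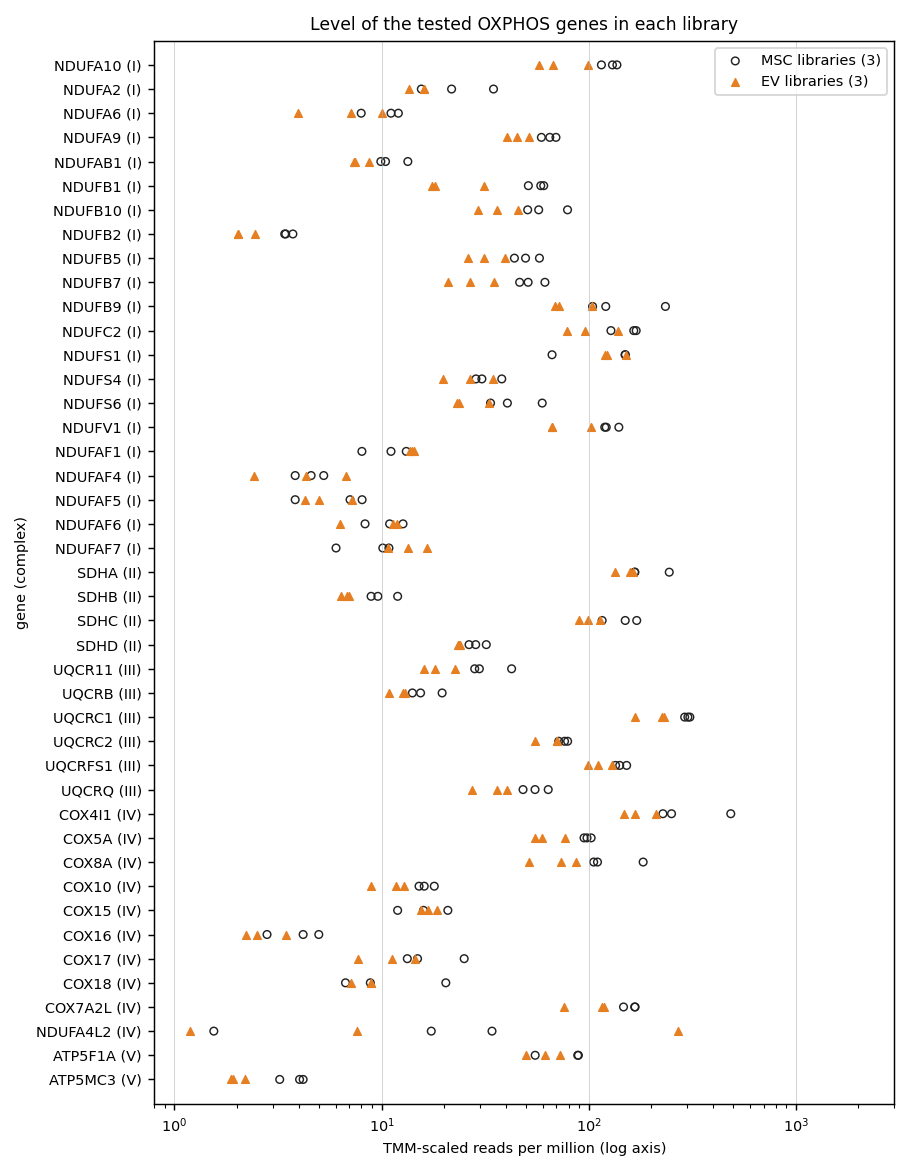
Level of 43 of the 44 tested OXPHOS genes in each library, in TMM-scaled CPM on a log axis; open circles are the 3 MSC libraries and triangles the 3 EV libraries. In 27 genes every triangle lies left of every circle, and NDUFA4L2 has EV libraries at 1.18 and 272.

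Levels can be compared between genes per length, as reads per kilobase and library size (RPKM), which the authors scaled to all mapped reads of a library. In MSCs the highest mean RPKM were those of COX8A (56.2 ± 12.9, SD, n = 3), COX4I1 (50.8 ± 17.2), UQCRC1 (50.7 ± 4.34), NDUFB1 (48.0 ± 3.78), NDUFB9 (46.3 ± 16.9) and NDUFB7 (43.8 ± 1.98), and neighbours in this order differed by less than their spread. In EVs UQCRC1 stood at 35.5 ± 5.50 and COX8A at 31.3 ± 10.7, again within the spread, and NDUFB1 at 19.4 ± 8.11. The summed RPKM of the 72 genes was 738, 804 and 713 in MSCs and 615, 471 and 425 in EVs, and their share of the reads on genes was 0.330%, 0.321% and 0.317% against 0.297%, 0.213% and 0.201%. On these scales, without TMM, the groups again did not overlap.

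The pigs differed in the size of the difference. The median log2 ratio of the OXPHOS genes, EV over MSC of the same animal, was -0.22 in pig 1, -0.83 in pig 2 and -0.63 in pig 3, where all entries were at -0.01, 0.02 and -0.05. Complex I subunits had medians of -0.17, -1.12 and -0.78, complex II of -0.34, -0.71 and -0.33, and complex III of -0.24, -0.83 and -0.38. The assembly factors of complex I were at 0.09, 0.44 and -0.80. In EV replicates 2 and 3 the fibronectin gene FN1 was the most-read entry, at 8.37% and 6.40% of all reads, and its part in the result was not tested.

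**Figure D4:**
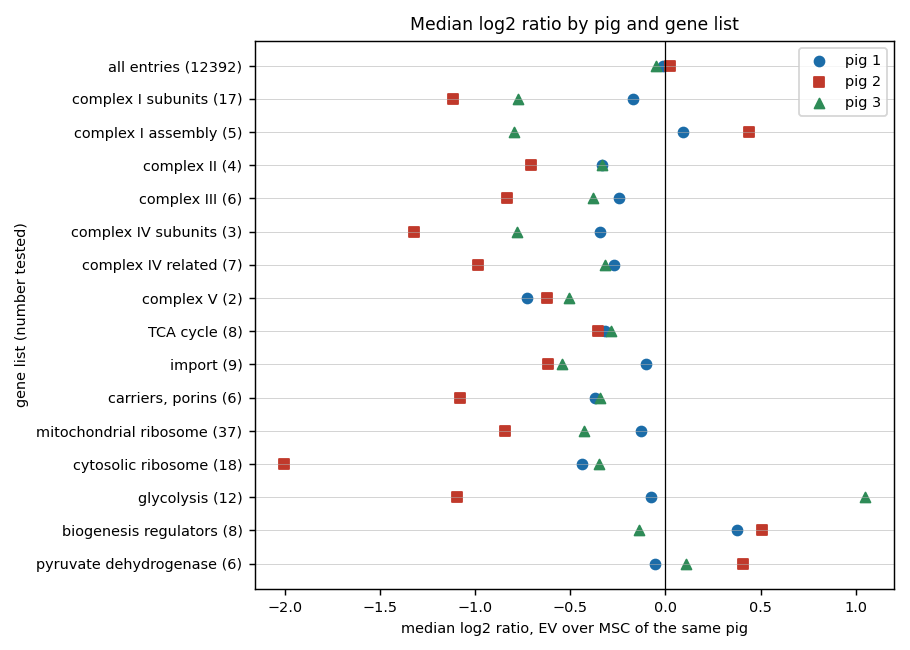
Median log2 ratio, EV over MSC of the same pig, for the OXPHOS genes by complex and for other gene lists, with the number of genes tested; each symbol is a pig. The medians of complexes I to V lie below 0 in each pig for the subunits, the complex I assembly factors fall on both sides, and all entries lie between -0.05 and 0.02.

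OXPHOS transcripts are short, and shorter entries had lower fold changes over the whole series. The tested OXPHOS genes had a median length of 1244 bases against 2020 over all entries, and 40.9% were under 1000 bases against 21.0%. Over all 12392 entries the log2 fold change had a Spearman correlation of 0.15 with length, and over the 44 OXPHOS genes of 0.51, where genes within libraries share depth and are not independent. Entries over 4000 bases had a median of 0.20, those of 1000 to 2000 bases -0.11, those of 500 to 1000 bases -0.16 and those up to 500 bases -0.08.

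Within each length class the median of the OXPHOS genes lay below that of all entries. The 6 of up to 500 bases had a median of -0.76, 6 of them lower, and the 12 of 500 to 1000 bases of -0.64, 11 of them lower. The 17 of 1000 to 2000 bases were at -0.53, 16 of them lower, and the 7 of 2000 to 4000 bases at -0.22, where all entries were at -0.02. In that class 4 of 7 were lower, against 51.0% of all entries. When the trend of each library with length was removed, the median was -0.51 against -0.07 over all entries, 38 of 44 genes were lower and 14 (31.8%) had an unadjusted p under 0.05, against 8.51% of all entries. When the pig was added as a block, 7 had (15.9% against 9.62%). The correlation with length among the OXPHOS genes was then 0.36, and -0.01 over all entries.

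**Figure D5:**
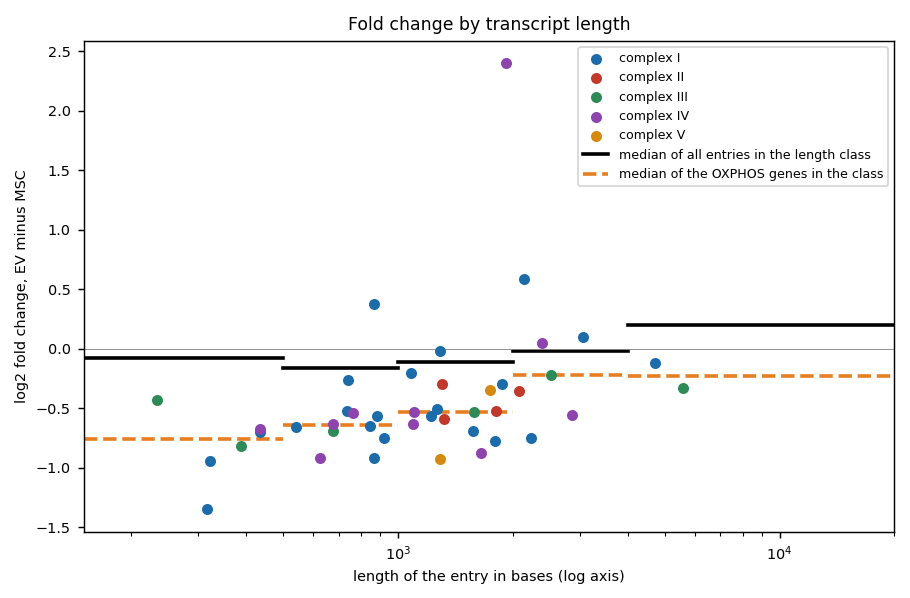
Log2 fold change, EV minus MSC, of the 44 tested OXPHOS genes against the length of their entry in bases on a log axis, coloured by complex; black lines are the medians of all tested entries in 5 length classes and orange lines those of the OXPHOS genes. The orange line lies below the black line in each class, from -0.76 against -0.08 up to 500 bases to -0.22 against 0.20 over 4000 bases, a class with 2 OXPHOS genes.

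Other lists of mitochondrial genes are given for comparison, as counts and medians over the genes tested. Over all entries 50.9% were lower, with a median of -0.02. Assembly factors outside the symbol pattern had 10 of 12 lower with a median log2 fold change of -0.42, among them TTC19 at -0.35, with LRPPRC, which stabilises mitochondrial mRNAs, at 0.54. Of the TCA cycle enzymes 7 of 8 were lower with a median of -0.31, and the most abundant, OGDH and SUCLG2, were at -0.30 and -0.07. Protein import had 8 of 9 lower (median -0.52), with the receptors TOMM22 at -0.75 and TOMM20 at -0.22, while the receptor TOMM70 was the gene that was higher, at 0.57. The carriers and porins, which move ADP, ATP, phosphate and metabolites, had 6 of 6 lower (median -0.70), with the ADP/ATP carrier SLC25A6 at -0.87 and the channel VDAC1 at -0.45.

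Ribosomal proteins were lower as well. Those of the mitochondrial ribosome had 33 of 37 lower with a median of -0.52, and those of the cytosolic ribosome 18 of 18 lower with a median of -1.03, which was -0.44 in pig 1, -2.01 in pig 2 and -0.35 in pig 3. By edgeR 0 of all 12392 entries passed the adjusted threshold, so its count of 0 in these lists and in the OXPHOS genes does not set them apart.

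The lists with a median of the other sign were small. The pyruvate dehydrogenase complex with its regulators had 2 of 6 lower (median 0.26), with PDHX at -0.16 and DLAT at 0.24. Regulators of mitochondrial biogenesis had 2 of 8 lower (median 0.19), with PPRC1 at 0.00 and NRF1 at -0.04. In that list TFAM, which packages and transcribes mitochondrial DNA and is named after its value was seen, was the gene with an unadjusted p under 0.05 (against 8.03% of all entries higher). It was at 5.66 ± 2.61 CPM in MSCs and 11.2 ± 1.22 in EVs (SD, n = 3 each), or 0.98 ± 0.41 (SE) on the log2 scale (edgeR, adjusted p = 0.308). MSC replicate 2 was low for TFAM, with 30 reads against 78 and 95 in MSC replicates 1 and 3, and another entry lay over the span. In the other direction, ESRRA was at -0.85 and lower in all 3 pigs. Glycolytic enzymes had 8 of 12 lower with a median of -0.19, with PKM at -0.29 and ENO1 at -0.57, and the pigs lay apart at -0.07, -1.10 and 1.05, with 0 genes lower in all 3 pigs.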

How the data were processed

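The mRNA table held raw read counts per gene entry, gene lengths and RPKM for 6 libraries. Per the labels, the authors built the libraries with a stranded kit, while the paper names the TruSeq RNA Sample Prep Kit and mentions no strand-specific step. Whether the reads carry strand information is therefore uncertain. The authors aligned reads to susScr3 with TopHat and deposited raw counts from HTSeq or featureCounts, the sources naming both. The strand setting is not given in the sources used here. The deposited RPKM were scaled by the authors to totals larger than the reads on genes, which made up 25.4% to 28.2% of them. Of 29661 entries 3 shifted by a column were left out. Symbols came from the table (4336 entries) or from the identifier table (11804 of 25322 Ensembl entries). The small-RNA files were not used.

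The EV and MSC counts were fitted in R 4.3.3 by edgeR 4.0.16 (TMM, filterByExpr, quasi-likelihood test, Benjamini-Hochberg over 12392 entries). The filter asked for 0.856 CPM, that is 10 reads at the median depth, in 3 libraries, and each of the 44 tested OXPHOS genes exceeded it in all 6 libraries. Ratios within a pig used a prior count of 0.5. Alternatives were DESeq2 1.42.0, limma 3.58.1 on log2(RPKM + 1) and log2(RPKM + 0.1), other scalings and filters, removal of a lowess trend with length (span 0.3), a block for the pig, and fits without single libraries. The edgeR fit without the block was tested on simulated counts that held no pig effect, and the alternatives were not tested in this way.

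The libraries pair by animal, from the pig labels. Over all entries, deviations from the group means correlated at 0.26, 0.39 and 0.41 in pairs of the same pig and at -0.36 to -0.05 across pigs. Over the OXPHOS genes alone the pairing was not clear. The correlations there were 0.83, -0.34 and 0.46 in pairs of the same pig and -0.81 to 0.53 across pigs.

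Genes named were those with an unadjusted p under 0.05, the largest changes of like sign in all 3 pigs, the most abundant per complex, complex II, cytochrome c, isoform pairs, genes without usable reads, and the most abundant of each other list; further ones are named for their role in a complex. The members, lists and rule were chosen with earlier results of these data known. CYC1 was not analysed here. Values of some items are not reported here and are left out of the plots that name genes.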

Additional observations from a re-analysis of the deposited data

How the results depend on the processing

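The count of OXPHOS genes lower in EVs at an unadjusted p under 0.05, 16 in the report, ranged from 2 to 14 as each library was left out. The 2 (4.55%, against 2.93% of all entries) came without EV replicate 2 and the 14 (31.8% against 6.78%) without EV replicate 1. The count was 5 (11.4% against 5.56%) with library totals in place of TMM factors, and 10 (22.7% against 8.68%) with the pig as a replicate block. The blocked pairing gave 7 (15.9% against 9.62%) when the length trend was removed as well. With a fold over 2 the count of 1 became 2 with a filter of 1 read and 1 to 6 as libraries were left out. In the main fit 3.57% of all entries were lower by that rule, and the shares under the other settings are not given here. The count with an adjusted p under 0.05 became 1 with DESeq2. The complex V median of -0.64 was -0.35 with a filter of 1 read, which adds genes of few reads, and -0.31 with limma on log2(RPKM + 1), where low levels are shrunk. The assembly and related median lay between -0.43 and 0.018 as libraries were left out, and NDUFA4L2 between -1.997 (without EV replicate 3) and 3.31. The other medians by complex kept their sign and stayed within the spread between pigs under each alternative run, as did the overall median, from -0.66 to -0.37. With only entries free of overlap, 22 of 23 OXPHOS genes were lower and the median was -0.56, and complex V had no gene left. The genes at or near 0 reads had another entry over their span, and whether depth limits them was not tested.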
